A study of Arabidopsis thaliana with 8 samples.

Results

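The 50 genes described here are WRKY transcription factor genes of Arabidopsis thaliana, followed across 4 genotypes. They were chosen by locus identifier, as 47 WRKY genes of groups I and II and the 3 immune receptors that carry a WRKY domain, WRKY16, WRKY19 and WRKY52. Among the 18333 genes with a value in at least 1 deposited table, 46 of the 50 were found, and WRKY9, WRKY14, WRKY35 and WRKY74 were in none. The list holds 11 members of group I, 3 of IIa, 7 of IIb, 12 of IIc, 7 of IId and 7 of IIe besides the receptors.

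RNA was sequenced from rosettes of untreated 28-day-old plants of the Col-0 ecotype, in 2 numbered libraries per genotype. The PBL19C3A line expresses PBL19C3A-GFP-HA, a mutated and tagged form of the receptor-like cytoplasmic kinase PBL19, in the pbl19 mutant, and is labelled as constitutively immune. The sid2 line has the same background and construct with a sid2 mutation, which hits the salicylic acid enzyme ICS1. The eds1 line has them with an eds1 mutation, which hits the immune regulator EDS1, and is labelled as WT-like. The PBL19 promoter drives the construct, per the labels, and the titles do not say whether its insertion is the same in the 3 lines. Plants of these lines are called PBL19C3A, sid2 and eds1 plants where levels are given. Wild type (WT) carries neither the pbl19 mutation nor the construct. No line with pbl19 alone or with a wild-type PBL19 transgene was analysed here, so the mutated kinase, the tag and the loss of native PBL19 cannot be told apart in any comparison with WT.

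WRKY factors are plant transcription factors named after the amino acids Trp-Arg-Lys-Tyr of their DNA-binding domain, which also holds a zinc finger. They bind the W box, whose core reads TTGAC, and many of them act in immunity, senescence and nutrient stress, some as activators and others as repressors. Immune mitogen-activated protein kinases phosphorylate group I members such as WRKY33, and promoters of WRKY genes themselves often hold W boxes. In the RefSeq coding sequences of TAIR10.1, all 11 group I members had 2 in-frame stretches that encode Trp-Arg-Lys-Tyr, and each of the other 39 members had 1.

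Totals per library were between 37373977 and 51202472 read counts. PBL19 stood at 2197 and 1637 FPKM (the authors' level scaled to gene length and library depth) in the PBL19C3A line, 626 and 956 in sid2 plants, 65.1 and 37.9 in eds1 plants and 7.40 and 10.4 in WT, and reads of the transgene and the native gene cannot be told apart. The lines being compared therefore differed in the level of the construct itself, and its part in the WRKY results was not tested. ICS1 stood at 5.02 and 4.45 FPKM in sid2 plants, against 72.6 and 57.1 in PBL19C3A plants. Without the sid2 mutation it was also low in eds1 plants, at 6.37 and 7.89, and in WT, at 5.81 and 8.78. EDS1 stood at 4.99 and 3.21 FPKM in eds1 plants, against 55.7 and 58.4 in PBL19C3A plants. Its level was 24.3 and 33.9 in sid2 plants and 8.03 and 13.4 in WT. Of the rosette markers, the summed level of 4 mesophyll genes was 24828 and 27552 FPKM in PBL19C3A plants, 31391 and 32017 in sid2 plants, 36446 and 41451 in eds1 plants and 42904 and 40191 in WT. Guard cell markers, 3 genes in all, summed to 12.6 and 16.3 FPKM in PBL19C3A plants, 22.4 and 21.3 in sid2 plants, 27.7 and 34.5 in eds1 plants and 32.3 and 30.7 in WT. Of 5 root markers 2 were listed in a table, of 4 flower markers 1 and of 3 trichome markers 1. By edgeR all 4 mesophyll and 3 guard cell genes, the trichome gene GL2 (log2 fold change -0.75) and 1 of 2 phloem genes, SUC2 (-0.56), were lower in the PBL19C3A line than in WT, and the root phosphate transporter gene PHT1;1 was higher in the sid2 line than in WT (2.25); the calls on these last 3 genes were lost without at least 1 of their libraries (highest adjusted p 0.0666, 0.0922 and 0.177). In the sid2 line over WT 2 of 4 mesophyll, 1 of 3 guard cell and 1 of 2 phloem genes were also lower (all genes: 4.05%). In the eds1 line against the PBL19C3A line 2 of 4 mesophyll genes, 2 of 3 guard cell genes and GL2 were higher (all genes: 12%). The part of these marker differences in the WRKY levels was not tested, and in such bulk samples fewer cells of a type and less RNA per cell cannot be told apart.

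The 300 bases before the annotated start of 5 members are shown because all 5 rose in the PBL19C3A line, by different amounts and from different levels in WT, and hold between 0 and 3 W-box cores. WRKY33 and WRKY15 had high levels already in WT, while WRKY75, WRKY51 and WRKY58 were near 0 there. All are read 5′ to 3′ on the strand of the gene from the RefSeq assembly TAIR10.1, with each TTGAC core, or its complement GTCAA, in capitals. The windows are chr2:16107935-16108234 (+ strand) for WRKY33, chr2:9924586-9924885 (+) for WRKY15, chr5:4151202-4151501 (- strand) for WRKY75, chr5:25907947-25908246 (+) for WRKY51 and chr3:25055-25354 (+) for WRKY58. No other annotated gene lies under these windows.
WRKY33: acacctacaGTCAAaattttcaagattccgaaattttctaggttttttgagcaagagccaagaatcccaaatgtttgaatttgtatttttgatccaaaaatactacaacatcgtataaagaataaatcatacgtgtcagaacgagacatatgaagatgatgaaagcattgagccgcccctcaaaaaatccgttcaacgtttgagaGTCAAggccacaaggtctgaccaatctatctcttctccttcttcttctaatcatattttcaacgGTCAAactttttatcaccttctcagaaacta
WRKY15: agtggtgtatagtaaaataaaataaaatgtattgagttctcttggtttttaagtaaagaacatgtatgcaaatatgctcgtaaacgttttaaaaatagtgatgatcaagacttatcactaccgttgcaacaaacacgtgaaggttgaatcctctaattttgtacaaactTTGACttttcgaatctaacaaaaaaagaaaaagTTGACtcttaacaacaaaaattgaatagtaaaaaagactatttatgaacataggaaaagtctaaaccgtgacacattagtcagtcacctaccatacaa
WRKY75: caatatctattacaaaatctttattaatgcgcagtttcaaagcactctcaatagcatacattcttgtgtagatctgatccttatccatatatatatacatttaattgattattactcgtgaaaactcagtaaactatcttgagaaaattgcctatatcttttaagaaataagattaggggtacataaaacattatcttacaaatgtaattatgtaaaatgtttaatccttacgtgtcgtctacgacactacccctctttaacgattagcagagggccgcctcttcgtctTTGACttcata
WRKY51: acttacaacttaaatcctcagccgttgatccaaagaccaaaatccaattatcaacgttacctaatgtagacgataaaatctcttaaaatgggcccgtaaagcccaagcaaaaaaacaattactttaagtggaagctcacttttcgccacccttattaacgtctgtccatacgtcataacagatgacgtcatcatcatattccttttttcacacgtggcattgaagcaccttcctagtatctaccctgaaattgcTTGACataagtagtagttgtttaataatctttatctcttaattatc
WRKY58: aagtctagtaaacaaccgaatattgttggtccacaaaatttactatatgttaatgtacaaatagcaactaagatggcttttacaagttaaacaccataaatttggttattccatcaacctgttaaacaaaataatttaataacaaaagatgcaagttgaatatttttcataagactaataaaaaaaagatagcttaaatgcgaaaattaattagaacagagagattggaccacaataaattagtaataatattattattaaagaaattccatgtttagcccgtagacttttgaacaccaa
WRKY33 held 3 cores, WRKY15 held 2, WRKY75 and WRKY51 held 1 each, and WRKY58 held 0. A match is a description of letters and not a binding site.

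Across the family, 28 of the 50 windows (56%) held at least 1 core on either strand, against 50.4% of 27438 windows of all annotated genes with a window. The longer forms TTGACC or TTGACT, which contain the core, were in 38% of member windows and 32.3% of all, and 2 or more cores were in 24% of member windows and 17.9% of all. Of the 31 members that rose in the PBL19C3A line (next paragraphs), 19 windows (61.3%) held a core, against 58.6% of the windows of all genes that rose there. WRKY32, with 4 cores, and WRKY29, also with 4, are members whose levels did not pass the test in any comparison. For 8 members another annotated gene lies under the window, among them the 3 receptors.

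**Figure D1:**
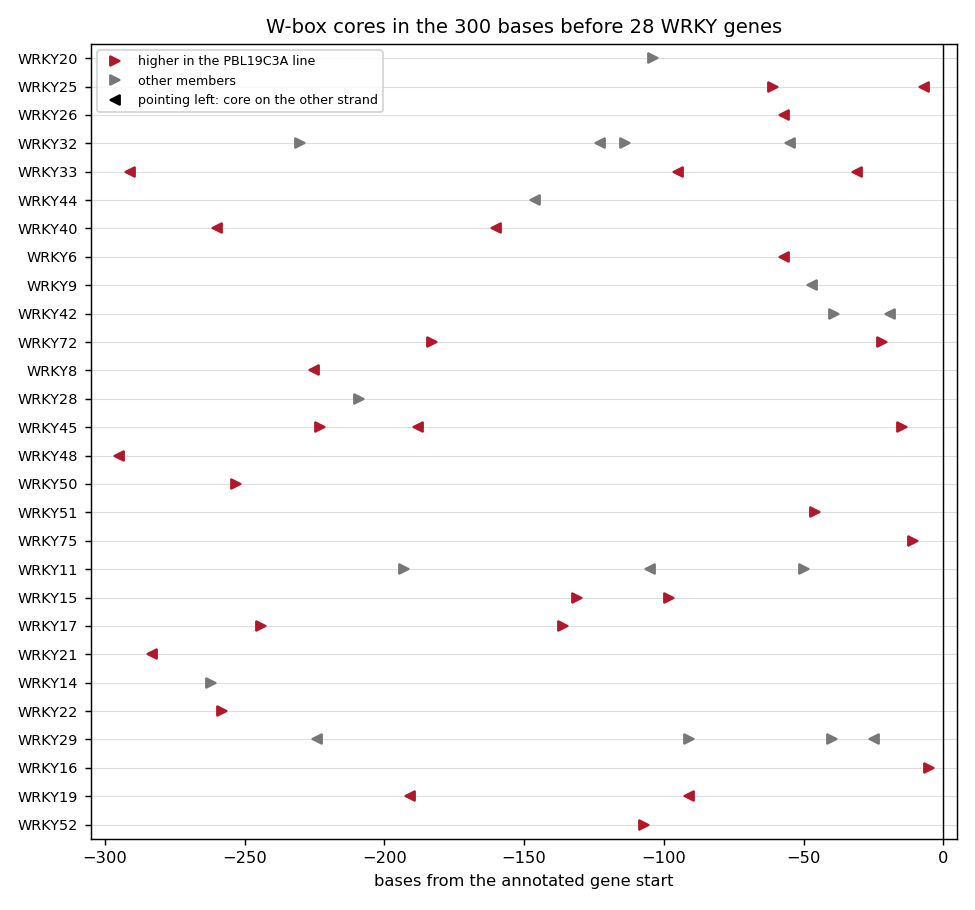
Positions of TTGAC cores in the 300 bases before the annotated start of the 28 members that hold one; the horizontal axis is the distance in bases from the start. Red triangles mark members that rose in the PBL19C3A line, grey ones the others, and the triangle points left where the core is on the other strand. Cores lie along the whole window in both kinds of member.

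In the comparison of the PBL19C3A line with WT, 31 of the 45 members with values were higher and 1 was lower, by edgeR's quasi-likelihood test at an adjusted p under 0.05. The median log2 fold change of the members was 1.13, against 0.02 for all genes tested. Over all 18048 genes, 21.3% were called higher and 14.9% lower. The 2 PBL19C3A libraries lay above both WT libraries for 38 of the 45 members and below for 3, and over all genes these shares were 40.2% and 30.4%. The tables hold a gene where 2 or more of their 4 libraries reached 1 CPM (CPM being the count relative to the library's total), so 9 members with under 1 CPM in both WT libraries were listed because the PBL19C3A line was high. Among the 34 members with at least 1 CPM in both WT libraries, 22 were higher and 1 lower, against 18.7% and 15.8% of such genes overall. The higher calls were 7 of 11 in group I, 3 of 3 in IIa, 5 of 6 in IIb, 8 of 12 in IIc, 4 of 6 in IId, 1 of 4 in IIe and 3 of 3 receptors. Of members at 1 CPM in both WT libraries, 6 of 10 in group I and 2 of 2 in IIa were higher. Such calls were 2 of 2 in IIb, 4 of 8 in IIc, 4 of 6 in IId, 1 of 3 in IIe and 3 of 3 receptors. The 1 lower call was in IIc, besides the 8 higher ones there.

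**Figure D2:**
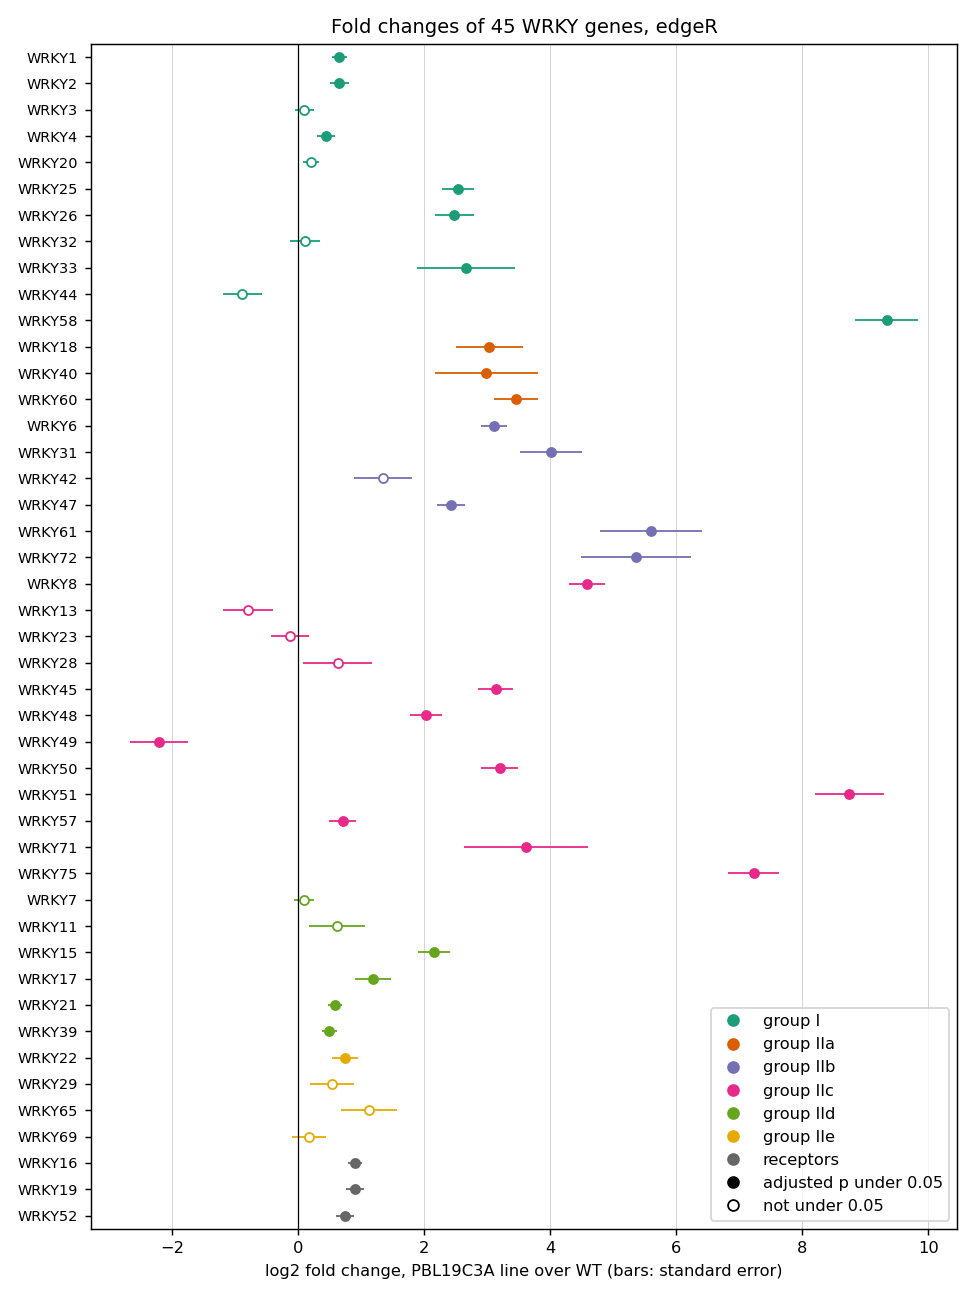
Log2 fold change of the PBL19C3A line over WT for the 45 members with values, by group, with standard errors from edgeR (2 libraries per genotype). Filled circles have an adjusted p under 0.05; WRKY58, WRKY51 and WRKY75 lie farthest to the right and WRKY49 is the filled circle left of 0.

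With the sid2 line set against WT, 19 of 43 members were higher and 0 lower by edgeR (all genes: 12.1% higher, 4.05% lower), with a median log2 fold change of 0.88. Libraries did not overlap for 35 members above WT and 2 below (all genes: 36.9% and 23.6%). Among the members at 1 CPM in both WT libraries 11 of 34 were higher (all such genes: 9.72%). In the eds1 line against WT, 0 of 36 members were called by edgeR and 0 by DESeq2, with 3 at an unadjusted p under 0.05 and a median of 0.13. Over all genes 0.16% were called in that comparison. The eds1 libraries lay above both WT libraries for 8 of the 36 and below for 1 (all genes: 20.4% and 11%). When the eds1 line was set against the PBL19C3A line, 17 of 36 members were lower and 0 higher (all genes: 16.2% lower, 12% higher), with a median of -0.65. Of 34 members at 1 CPM in both WT libraries 16 were lower (all such genes: 16.1%), and the libraries of the eds1 line lay below those of the PBL19C3A line for 24 members and above for 3 (all genes: 33.8% and 33.1%). For the sid2 line against the PBL19C3A line, 2 of 42 members were lower and 0 higher (all genes: 1.98% lower, 0.651% higher), with a median of -0.17. Among the 34 members at 1 CPM in both WT libraries 0 were called in this comparison. The 2 called members were under 1 CPM in both WT libraries. There the sid2 libraries lay below those of the PBL19C3A line for 20 members and above for 7 (all genes: 24.7% and 24.6%), and with the library number as a block the lower members were 4. These comparisons share libraries, so their counts are not independent of each other.

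**Figure D3:**
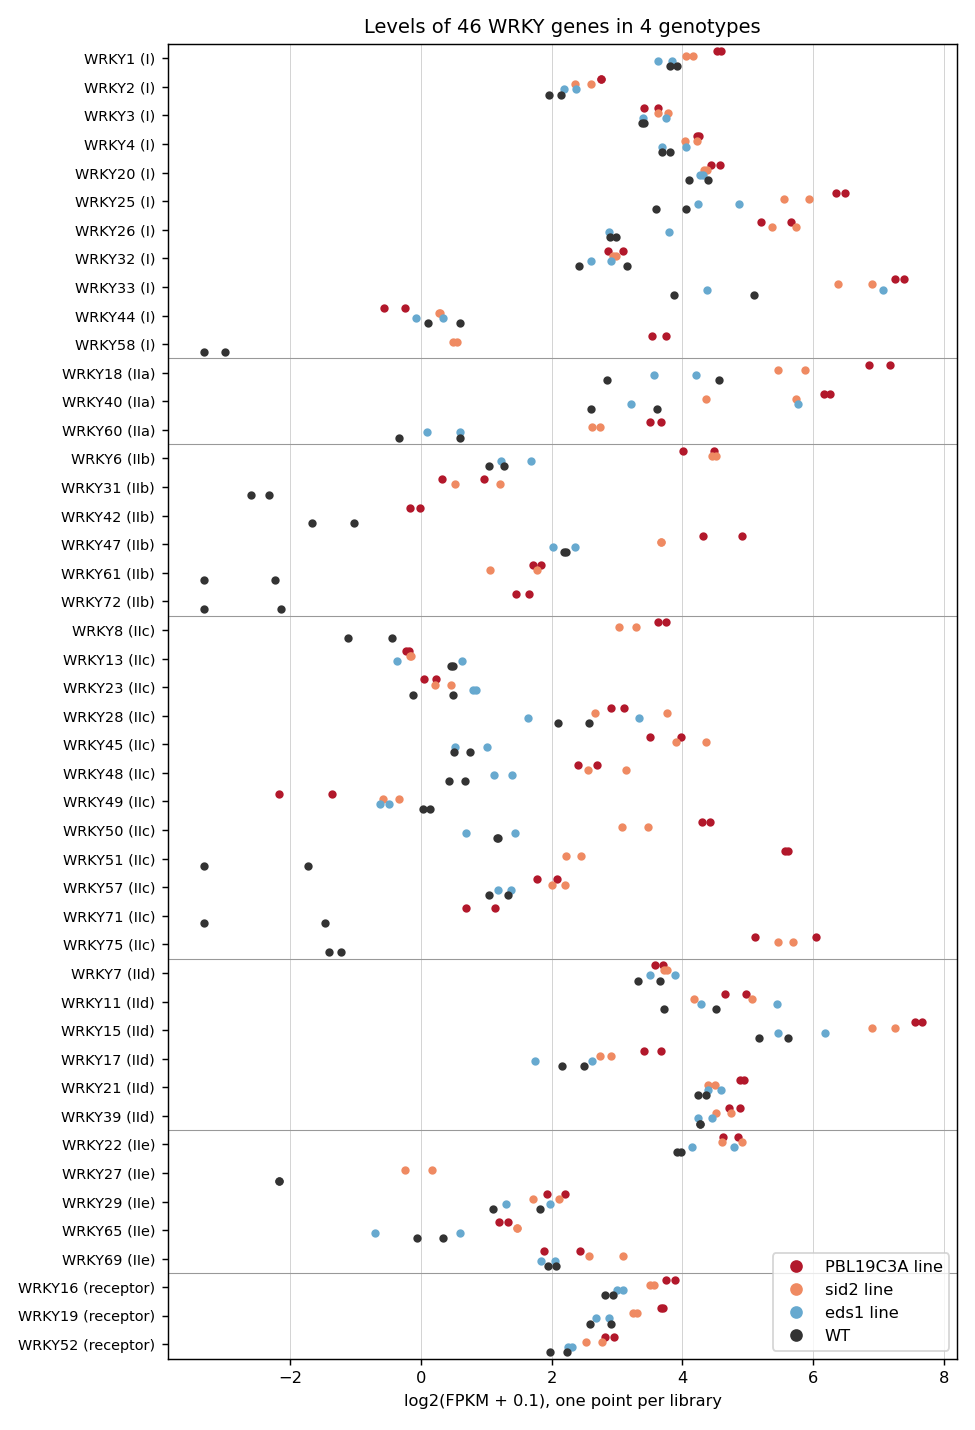
Level of each of the 46 listed members in every library, as log2(FPKM + 0.1), with 2 points per genotype; genotypes run downward within a gene as PBL19C3A, sid2, eds1 and WT, and a genotype without points was not listed for that gene. In most members the PBL19C3A points lie to the right of the WT points, while the points of the eds1 line lie near those of WT.

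The 2 libraries of a genotype were not equally alike for these genes. In the eds1 line, 6 of 36 members were at least 2-fold higher in library 1 than in library 2 and 0 the other way, against 1.97% and 0.87% of all genes of at least 1 FPKM. In the sid2 line this held for 2 of 43 members in library 1, WRKY40 and WRKY28 (all genes: 1.77%), and in the PBL19C3A line for 1 of 45 in library 2, WRKY49 (all genes: 0.419%). In WT, 4 of 41 members were at least 2-fold higher in library 2 and 0 in library 1 (all genes: 1.49% and 0.802%). The members, unlike all genes, were counted at any level above 0, so these shares are not strictly alike. Of the members counted, WRKY13 and WRKY65 in the eds1 line, WRKY60 in WT and WRKY49 in the PBL19C3A line were under 1 FPKM in 1 or both libraries. WRKY33 and WRKY40 were among the members concerned in both the eds1 line and WT. Their results are given with and without the library. What sets these libraries apart was not tested.

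**Figure D4:**
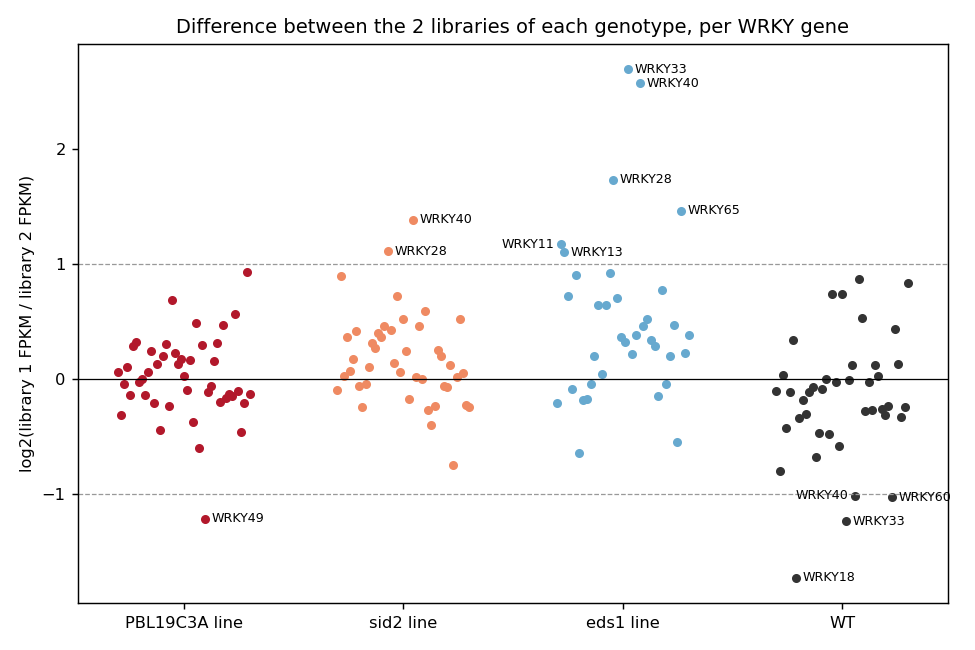
Log2 ratio of library 1 to library 2 of the same genotype, 1 point per member listed with a level above 0 in both; dashed lines mark a 2-fold difference and members beyond them are named. Points of the eds1 line reach furthest up, led by WRKY33 and WRKY40, and WRKY18 in WT lies lowest.

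In group I, WRKY58 was near 0 in WT, some members rose from higher WT levels and others kept a steady level in every genotype. WRKY58 (AT3G01080), known as a repressor in systemic acquired resistance, stood at 11.5 and 13.3 FPKM in PBL19C3A plants, 1.31 and 1.37 in sid2 plants and 0.0254 and 0 in WT, and it was not listed for the eds1 line. The WT level rests on 2 counts in 1 library and 0 in the other, against 714 and 654 counts in the PBL19C3A line. The ratio of the PBL19C3A line to WT was 735 (exact 95% counting interval 203 to 6076), and that of the sid2 line to WT was 79.8 (21.8 to 664). Both differences were called by edgeR (adjusted p 0.000107 and 0.00119). No library of one genotype overlapped those of another, and in the sid2 line against the PBL19C3A line WRKY58 fell by 3.19 ± 0.31 on the log2 scale (SE, edgeR adjusted p = 0.0104). That call was lost without any 1 of the 4 libraries compared, with adjusted p-values between 0.0533 and 0.0854 and log2 fold changes between -3.31 and -3.06.

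WRKY25 (AT2G30250) and WRKY26 (AT5G07100) act with WRKY33 in heat tolerance. WRKY25 stood at 89.6 and 81.8 FPKM in PBL19C3A plants, 61.4 and 46.7 in sid2 plants, 29.1 and 18.7 in eds1 plants and 12.0 and 16.6 in WT. The genotypes followed each other without overlap. The log2 fold change over WT was 2.54 ± 0.25 in PBL19C3A plants (edgeR adjusted p = 0.000477) and 1.86 ± 0.24 in sid2 plants (0.00319), and the eds1 line was lower than the PBL19C3A line by -1.85 ± 0.24 (0.00201). WRKY26 stood at 36.8 and 50.3 FPKM in PBL19C3A plants, 53.4 and 41.5 in sid2 plants, 13.8 and 7.28 in eds1 plants and 7.36 and 7.81 in WT. The sid2 and PBL19C3A libraries of WRKY26 overlapped (log2 fold change 0.11 ± 0.29, edgeR adjusted p = 0.887), and those of the eds1 line and WT did too. WRKY26 rose over WT by 2.48 ± 0.31 in PBL19C3A plants and by 2.58 ± 0.31 in sid2 plants on the log2 scale (edgeR adjusted p = 0.00116 and 0.00222), and fell by 2.05 ± 0.30 in the eds1 line against the PBL19C3A line (0.00308).

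WRKY33 (AT2G38470), which controls camalexin synthesis and resistance to necrotrophic fungi, stood at 167 and 153 FPKM in PBL19C3A plants, 119 and 83.2 in sid2 plants, 134 and 20.7 in eds1 plants and 14.5 and 34.2 in WT. Both libraries of the PBL19C3A and sid2 lines were above WT, whereas the eds1 line spanned the range between them, with library 1 near the PBL19C3A line and library 2 within the WT range. The difference between the PBL19C3A line and WT was a log2 fold change of 2.67 ± 0.78 (edgeR adjusted p = 0.0335). Leaving out any 1 of the 4 libraries ended this call, with adjusted p-values between 0.0613 and 0.163 and log2 fold changes from 2.17 without WT library 1 to 3.40 without WT library 2. For the eds1 line against the PBL19C3A line the log2 fold change was -1.07 ± 0.74 and not called (edgeR adjusted p = 0.323), but without eds1 library 1 it was -2.90 and called (0.0127), and without eds1 library 2 it was -0.27 (0.744). In the sid2 line against WT it was 1.99 ± 0.76 (edgeR adjusted p = 0.122).

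WRKY1 (AT2G04880), also called ZAP1, stood at 24.0 and 23.1 FPKM in PBL19C3A plants, 16.6 and 17.8 in sid2 plants, 12.3 and 14.2 in eds1 plants and 14 and 15 in WT. It rose over WT by 0.66 ± 0.12 on the log2 scale in the PBL19C3A line (edgeR adjusted p = 0.00548) and was lower in the eds1 line than in the PBL19C3A line by -0.83 ± 0.12 (0.00305). WRKY2 (AT5G56270), which acts in pollen and at germination, and WRKY4 (AT1G13960), which acts against necrotrophs, rose in the PBL19C3A line over WT by 0.66 and 0.45 (edgeR adjusted p = 0.0122 and 0.0415). WRKY2 lost its call without either PBL19C3A library or without WT library 1 (adjusted p 0.0538, 0.0515 and 0.0809), and WRKY4 without any 1 of the 4 libraries (0.0982 to 0.168). The eds1 line had 4.48 and 5.08 FPKM of WRKY2, against 6.62 and 6.62 in PBL19C3A plants, a difference of -0.47 that edgeR called with the library number as a block (adjusted p = 0.0204) and not without it (0.0507). WRKY3, WRKY20, WRKY32 and WRKY44 were not called in any of the 5 comparisons. WRKY3, WRKY20 and WRKY32 lay between 5.26 and 23.8 FPKM in all 8 libraries. WRKY44, the trichome and seed coat regulator TTG2, stood at 0.573 and 0.746 FPKM in PBL19C3A plants against 1.41 and 0.980 in WT (log2 fold change -0.88 ± 0.31, edgeR adjusted p = 0.0627).

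The 3 members of group IIa, which have overlapping roles in basal defence and can form complexes with each other, were all higher in the PBL19C3A line than in WT. WRKY18 (AT4G31800) stood at 145 and 116 FPKM in PBL19C3A plants, 58.6 and 44.0 in sid2 plants, 11.8 and 18.4 in eds1 plants and 7.12 and 23.6 in WT. WRKY60 (AT2G25000) stood at 11.3 and 12.7, 6.55 and 6.01, 0.972 and 1.42, and 0.690 and 1.41 FPKM in the same order of genotypes. In both genes the PBL19C3A libraries lay above the sid2 libraries and these above all others, while the eds1 line overlapped WT.

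WRKY18 rose by 3.04 ± 0.53 on the log2 scale in the PBL19C3A line over WT (edgeR adjusted p = 0.00441), 2.40 without WT library 1 and 4.13 without WT library 2. WRKY60 rose by 3.46 ± 0.35 (edgeR adjusted p = 0.000553), and by 4.05 without WT library 2. In the eds1 line against the PBL19C3A line both fell, with log2 fold changes of -3.10 ± 0.53 for WRKY18 and -3.30 ± 0.35 for WRKY60 (edgeR adjusted p = 0.00552 and 0.000873). The sid2 line exceeded WT by 2.51 ± 0.34 for WRKY60 (edgeR adjusted p = 0.00376), and by 3.12 without WT library 2. For WRKY18 this difference was 1.68 ± 0.50 and not called (edgeR adjusted p = 0.0627), although it was called with the library number as a block (0.0433) and, at 2.79, without WT library 2 (0.00761).

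WRKY40 (AT1G80840) stood at 71.5 and 76.4 FPKM in PBL19C3A plants, 53.3 and 20.5 in sid2 plants, 54.5 and 9.20 in eds1 plants and 5.96 and 12.1 in WT. As in WRKY33, eds1 library 1 was far above eds1 library 2, which lay within the WT range. The rise in the PBL19C3A line over WT was 2.99 ± 0.82 on the log2 scale (edgeR adjusted p = 0.0265). It was lost without any 1 of the 4 libraries (adjusted p 0.068 to 0.14, log2 fold change 2.56 without WT library 1 to 3.58 without WT library 2). In the eds1 line against the PBL19C3A line the log2 fold change was -1.23 ± 0.77 (edgeR adjusted p = 0.272), and -2.96 without eds1 library 1, which was called (0.0247), and -0.45 without eds1 library 2 (0.653).

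Of group IIb, 5 of the 6 members with values rose in the PBL19C3A line (all genes: 21.3%). Only 2 of the 6, both among those that rose, were at 1 CPM in both WT libraries. WRKY6 (AT1G62300), a regulator of senescence and of the phosphate exporter gene PHO1, is described first. WRKY6 stood at 22.2 and 16.0 FPKM in PBL19C3A plants, 21.7 and 22.8 in sid2 plants, 3.12 and 2.25 in eds1 plants and 1.96 and 2.32 in WT. The sid2 and PBL19C3A libraries overlapped, and so did the eds1 and WT libraries. WRKY6 rose over WT by 3.11 ± 0.21 on the log2 scale in PBL19C3A plants and by 3.32 ± 0.21 in sid2 plants (edgeR adjusted p = 0.000127 and 0.000264). It fell by 2.83 ± 0.21 in the eds1 line against the PBL19C3A line (edgeR adjusted p = 0.000216), and the sid2 line differed from the PBL19C3A line by 0.20 ± 0.19 (0.639).

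WRKY47 (AT4G01720) stood at 19.8 and 30.0 FPKM in PBL19C3A plants, 12.6 and 12.7 in sid2 plants, 5.03 and 3.97 in eds1 plants and 4.44 and 4.54 in WT. Here the sid2 line lay between the PBL19C3A line and WT without overlap. The log2 fold change over WT was 2.43 ± 0.22 in PBL19C3A plants and 1.44 ± 0.21 in sid2 plants (edgeR adjusted p = 0.000337 and 0.0051), and that of the eds1 line over the PBL19C3A line -2.47 ± 0.22 (0.000421). The sid2 line against the PBL19C3A line gave -1.0 ± 0.21, which was called with the library number as a block (edgeR adjusted p = 0.0478) and not without it (0.0557).

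The remaining listed IIb genes were under 1 CPM in both WT libraries and not listed for the eds1 line. WRKY31 (AT4G22070) stood at 1.85 and 1.15 FPKM in PBL19C3A plants, 2.21 and 1.34 in sid2 plants and 0.0657 and 0.0990 in WT. WRKY61 (AT1G18860) stood at 3.20 and 3.49, 1.98 and 3.32, and 0.113 and 0 FPKM in these genotypes. WRKY72 (AT5G15130), which acts in basal defence, was listed for the PBL19C3A line, at 2.63 and 3.05 FPKM, and for WT, at 0 and 0.128. In each gene the PBL19C3A libraries lay above WT, and for WRKY31 and WRKY61 they overlapped the sid2 libraries.

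Set against WT, the PBL19C3A line had ratios of summed counts of 17.2 for WRKY31 (exact 95% counting interval 10.2 to 31.2), 50.9 for WRKY61 (26.5 to 112) and 42.9 for WRKY72 (24.3 to 83.6). All 3 were called by edgeR (adjusted p 0.00157, 0.00293 and 0.00551). The sid2 line had ratios to WT of 19.8 for WRKY31 (11.8 to 35.8) and 39.8 for WRKY61 (20.7 to 87.6), with edgeR adjusted p-values of 0.00277 and 0.00768. The fitted log2 fold changes of WRKY61 and WRKY72 depend on which WT library holds their few counts: in the PBL19C3A line over WT that of WRKY61 was 5.61, and 4.64 without WT library 2, and that of WRKY72 was 5.37, and 4.39 without WT library 1. That of WRKY61 in the sid2 line over WT was 5.28, and 4.31 without WT library 2. Without the other WT library each gene is at 0 in WT, so that no fold can be given. WRKY42, another regulator of PHO1, stood at 0.889 and 0.794 FPKM in PBL19C3A plants against 0.394 and 0.215 in WT (log2 fold change 1.35 ± 0.46). It was called with the library number as a block (edgeR adjusted p = 0.0496) and not without it (0.0646).

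Group IIc was the most varied. WRKY50 (AT5G26170) and WRKY51 (AT5G64810) repress jasmonate signalling when oleic acid is low and salicylic acid is high. Among the 50 members, only these had Trp-Arg-Lys-Tyr followed by residues other than Gly-Gln-Lys. WRKY genes outside the list were not examined for this. The 7 codons from Trp-Arg-Lys-Tyr on are shown for both and for WRKY75 and the second domain of WRKY33, which have the usual stretch, with codon 6 in capitals. They are read on the strand of the gene from TAIR10.1, at chr5:9147579-9147599 (-), chr5:25908864-25908884 (+), chr5:4150786-4150806 (-) and chr2:16109982-16110002 (+).
WRKY50: tggagaaagtatgggAAGaag
WRKY51: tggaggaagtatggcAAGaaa
WRKY75: tggaggaaatatggcCAAaag
WRKY33: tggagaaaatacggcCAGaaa
The capital codon encodes Lys in WRKY50 and WRKY51 and Gln in WRKY75 and WRKY33.

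WRKY51 stood at 47.2 and 49.2 FPKM in PBL19C3A plants, 4.56 and 5.38 in sid2 plants and 0 and 0.201 in WT, and was not listed for the eds1 line. The WT libraries had 0 and 7 counts, and the ratio of summed counts to WT was 454 in PBL19C3A plants (exact 95% counting interval 220 to 1130) and 46.3 in sid2 plants (22.3 to 116). Both were called by edgeR (adjusted p 0.000168 and 0.00207). The fitted log2 fold changes over WT were 8.75 in PBL19C3A plants and 5.48 in sid2 plants, and 7.76 and 4.48 without WT library 1; without WT library 2 the gene is at 0 in WT and has no fold. In the sid2 line WRKY51 was lower than in the PBL19C3A line by -3.27 ± 0.36 on the log2 scale (edgeR adjusted p = 0.0138). This call, too, was lost without any 1 of the 4 libraries (adjusted p 0.0659 to 0.113, log2 fold change -3.40 to -3.16). WRKY58 and WRKY51 were the 2 members called by edgeR between the sid2 and PBL19C3A lines. DESeq2 also called WRKY47, WRKY50, WRKY21 and WRKY1 lower in the sid2 line (DESeq2 adjusted p = 0.00116, 0.00545, 0.00907 and 0.0412).

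WRKY50 stood at 19.6 and 21.3 FPKM in PBL19C3A plants, 8.35 and 11 in sid2 plants, 2.60 and 1.52 in eds1 plants and 2.16 and 2.13 in WT. The sid2 libraries lay between the PBL19C3A line and WT. WRKY50 rose over WT by 3.20 ± 0.29 in PBL19C3A plants and by 2.11 ± 0.28 in sid2 plants on the log2 scale (edgeR adjusted p = 0.00035 and 0.00341), and fell by 3.29 ± 0.29 in the eds1 line against the PBL19C3A line (0.000421). The sid2 line differed from the PBL19C3A line by -1.09 ± 0.26 (edgeR adjusted p = 0.0809).

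WRKY75 (AT5G13080) and WRKY45 (AT3G01970) are close relatives that act in phosphate starvation, and WRKY75 also promotes leaf senescence. WRKY75 stood at 66 and 34.6 FPKM in PBL19C3A plants, 43.9 and 51.6 in sid2 plants and 0.277 and 0.329 in WT, and was not listed for the eds1 line. WRKY45 stood at 15.6 and 11.2, 20.5 and 14.9, 1.91 and 1.33, and 1.32 and 1.59 FPKM in the PBL19C3A, sid2 and eds1 lines and WT. In both genes the sid2 libraries overlapped those of the PBL19C3A line, in contrast to WRKY51 and WRKY58.

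WRKY75 rose over WT by 7.23 ± 0.41 in PBL19C3A plants and 7.17 ± 0.41 in sid2 plants on the log2 scale (edgeR adjusted p = 0.000123 and 0.000302). WRKY45 rose by 3.14 ± 0.28 and 3.53 ± 0.28 in these lines (edgeR adjusted p = 0.000329 and 0.000516) and fell by 3.03 ± 0.28 in the eds1 line against the PBL19C3A line (0.000485). Between the sid2 and PBL19C3A lines the log2 fold changes were -0.06 ± 0.27 for WRKY75 and 0.38 ± 0.25 for WRKY45 (edgeR adjusted p = 0.936 and 0.472).

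**Figure D5:**
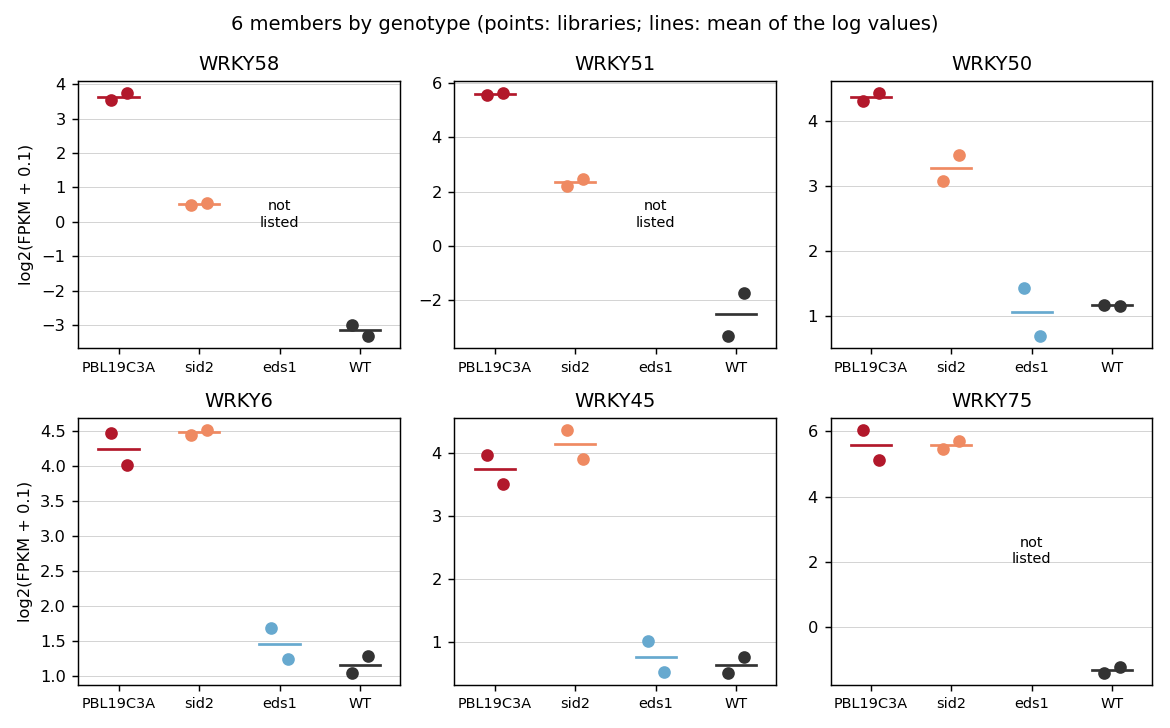
Levels of 6 members as log2(FPKM + 0.1) in the PBL19C3A, sid2 and eds1 lines and WT; points are libraries and lines the mean of the log values of a genotype. WRKY58, WRKY51 and WRKY50 step down in the sid2 line, while WRKY6, WRKY45 and WRKY75 overlap between the PBL19C3A and sid2 lines; the vertical axes differ between panels.

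WRKY8 (AT5G46350), which acts in salt tolerance, stood at 12.3 and 13.4 FPKM in PBL19C3A plants, 8.11 and 9.65 in sid2 plants and 0.640 and 0.360 in WT. It rose over WT by 4.59 ± 0.29 and 4.07 ± 0.28 on the log2 scale in these lines (edgeR adjusted p = 0.000167 and 0.000525) and was not listed for the eds1 line. WRKY48 (AT5G49520), a repressor of basal defence, stood at 6.34 and 5.20 FPKM in PBL19C3A plants, 8.66 and 5.76 in sid2 plants, 2.52 and 2.08 in eds1 plants and 1.25 and 1.5 in WT. Its eds1 libraries lay above both WT libraries, though the difference of 0.70 ± 0.24 on the log2 scale was not called (edgeR adjusted p = 1). WRKY48 rose over WT by 2.03 ± 0.25 in PBL19C3A plants and 2.33 ± 0.25 in sid2 plants (edgeR adjusted p = 0.00108 and 0.00143), and the eds1 line was lower than the PBL19C3A line by -1.33 ± 0.24 (0.0067).

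WRKY57 (AT1G69310), which acts in drought tolerance, stood at 4.12 and 3.33 FPKM in PBL19C3A plants, 4.51 and 3.92 in sid2 plants, 2.49 and 2.17 in eds1 plants and 1.95 and 2.43 in WT. Its rises over WT of 0.71 ± 0.22 in PBL19C3A plants and 0.88 ± 0.22 in sid2 plants (edgeR adjusted p = 0.0408 and 0.0367) were each lost without any 1 of the 4 libraries compared, with adjusted p-values of 0.058 to 0.195 and of 0.0651 to 0.182. WRKY71 (AT1G29860), a gene of shoot branching, was listed at 1.52 and 2.10 FPKM in PBL19C3A plants and 0 and 0.260 in WT. The counts were 73 and 80 against 0 and 13, a ratio of 12.6 (exact 95% counting interval 7.18 to 24.3). The fitted log2 fold change of 3.62 was called (edgeR adjusted p = 0.032), but not without PBL19C3A library 1 (0.0891) or library 2 (0.114), and it was 2.64 without WT library 1; WT library 1 alone is at 0.

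WRKY49 (AT5G43290) was the 1 member that fell in the PBL19C3A line. It stood at 0.123 and 0.288 FPKM there, 0.571 and 0.690 in sid2 plants, 0.551 and 0.611 in eds1 plants and 0.997 and 0.918 in WT, and reached its place in the tables through the WT libraries. The PBL19C3A libraries were the lowest and the WT libraries the highest of the 8. The log2 fold change of the PBL19C3A line over WT was -2.20 ± 0.46 (edgeR adjusted p = 0.0092), -2.91 without PBL19C3A library 2 and, no longer called, -1.67 without PBL19C3A library 1 (0.052). The eds1 line exceeded the PBL19C3A line by 1.47 ± 0.47 (edgeR adjusted p = 0.0533), which was called with the library number as a block (0.0418) and, at 2.17, without PBL19C3A library 2 (0.0371).

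WRKY13, WRKY23 and WRKY28, known from stem development, root development and activation of ICS1, were not called in any comparison. WRKY13 and WRKY23 lay between 0.679 and 1.69 FPKM. WRKY28 stood at 8.55 and 7.43 FPKM in PBL19C3A plants, 13.5 and 6.25 in sid2 plants, 10 and 3.02 in eds1 plants and 4.20 and 5.86 in WT. Its 2 libraries differed by more than 2-fold within both the sid2 and the eds1 line.

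Group IId factors bind calmodulin, and WRKY7, WRKY11 and WRKY17 are negative regulators of basal resistance. WRKY15 (AT2G23320) was abundant in every genotype, at 202 and 188 FPKM in PBL19C3A plants, 153 and 119 in sid2 plants, 72.2 and 43.9 in eds1 plants and 36.1 and 48.7 in WT. The PBL19C3A and sid2 libraries stood apart from each other and from the rest, and the eds1 line overlapped WT. WRKY15 rose over WT by 2.16 ± 0.25 on the log2 scale in PBL19C3A plants and 1.62 ± 0.25 in sid2 plants (edgeR adjusted p = 0.000919 and 0.00588), and fell by 1.75 ± 0.25 in the eds1 line against the PBL19C3A line (0.00274).

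WRKY17 (AT2G24570) stood at 12.7 and 10.5 FPKM in PBL19C3A plants, 7.39 and 6.55 in sid2 plants, 6.06 and 3.26 in eds1 plants and 5.52 and 4.35 in WT. It rose by 1.19 ± 0.28 on the log2 scale in the PBL19C3A line over WT (edgeR adjusted p = 0.0152), a call lost without PBL19C3A library 1 (0.0806) or WT library 2 (0.0849). It fell by 1.32 ± 0.28 in the eds1 line against the PBL19C3A line (edgeR adjusted p = 0.0132), a call lost without PBL19C3A library 1 (0.0735). WRKY11, its closest relative, was not called in any comparison, at 25.1 and 31.4 FPKM in PBL19C3A plants, 33.3 and 18 in sid2 plants, 43.7 and 19.4 in eds1 plants and 13.1 and 22.8 in WT.

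WRKY21 (AT2G30590) and WRKY39 (AT3G04670) changed by less than 2-fold. WRKY21 stood at 30.8 and 29.5 FPKM in PBL19C3A plants, 22.4 and 20.9 in sid2 plants, 23.9 and 20.8 in eds1 plants and 18.7 and 20.4 in WT, and WRKY39 at 29.4 and 26.2, 26.8 and 22.7, 21.8 and 18.8, and 19.1 and 19.2 FPKM in that order. Their log2 fold changes in the PBL19C3A line over WT were 0.59 ± 0.11 and 0.50 ± 0.12 (edgeR adjusted p = 0.00508 and 0.0181), and in the eds1 line over the PBL19C3A line -0.43 ± 0.11 and -0.45 ± 0.12 (0.0206 and 0.0323). The call on WRKY39 against WT was lost without PBL19C3A library 1, WT library 1 or WT library 2 (edgeR adjusted p 0.101, 0.0849 and 0.0708), and that against the PBL19C3A line without any 1 of the 4 libraries (0.059 to 0.178). For WRKY21 the call in the eds1 line was lost without either PBL19C3A library (0.098 and 0.0689) or eds1 library 2 (0.138). The sid2 line against the PBL19C3A line gave -0.50 ± 0.11 for WRKY21, called with the library number as a block (edgeR adjusted p = 0.0438) and not without it (0.0592). WRKY7 lay between 9.92 and 14.7 FPKM in the 8 libraries and was not called.

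In group IIe, WRKY22 (AT4G01250), which acts with WRKY29 downstream of flagellin sensing, stood at 28.8 and 24.5 FPKM in PBL19C3A plants, 30.1 and 24.2 in sid2 plants, 27.5 and 17.6 in eds1 plants and 15 and 15.7 in WT. All libraries of the 3 lines were above WT. The log2 fold changes over WT were 0.75 ± 0.21 in PBL19C3A plants and 0.76 ± 0.21 in sid2 plants (edgeR adjusted p = 0.0271 and 0.0472), and both calls were lost without any 1 of their 4 libraries (adjusted p 0.056 to 0.129 and 0.0625 to 0.222). In the eds1 line the difference from WT was 0.51 ± 0.21 (edgeR adjusted p = 1).

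WRKY27 (AT5G52830), which affects wilt caused by Ralstonia, was listed for the sid2 line, at 1.02 and 0.744 FPKM, and for WT, at 0.123 and 0.123. The summed counts were 121 against 16, a ratio of 6.82 (exact 95% counting interval 4.03 to 12.3), with an edgeR adjusted p of 0.0192, a call lost without any 1 of the 4 libraries (0.0534 to 0.141). WRKY29, WRKY65 and WRKY69 were not called in any comparison. WRKY65 stood at 1.41 and 0.515 FPKM in eds1 plants, against 2.18 and 2.42 in PBL19C3A plants, a log2 fold change of -1.25 ± 0.44 (edgeR adjusted p = 0.0713), called with the library number as a block (0.0472) and, at -2.11, without eds1 library 1 (0.0152). WRKY69 stood at 8.43 and 5.87 FPKM in sid2 plants, against 4.10 and 3.75 in WT, a difference of 0.83 ± 0.26 called with the block (edgeR adjusted p = 0.0255) and not without it (0.0741). WRKY29 lay between 2.05 and 4.53 FPKM in the 8 libraries.

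The 3 receptors join the domains of an intracellular immune receptor to a WRKY domain. WRKY52 is RRS1, which pairs with RPS4, WRKY16 is a close relative of it, and WRKY19 also carries a kinase domain. WRKY16 (AT5G45050) stood at 13.4 and 14.7 FPKM in PBL19C3A plants, 11.8 and 11.2 in sid2 plants, 7.94 and 8.47 in eds1 plants and 6.98 and 7.57 in WT. WRKY19 (AT4G12020) stood at 12.7 and 12.9, 9.40 and 9.79, 6.32 and 7.22, and 5.88 and 7.43 FPKM in that order. WRKY52 (AT5G45260) stood at 7.69 and 6.91, 6.74 and 5.66, 4.66 and 4.84, and 3.84 and 4.60 FPKM. In each receptor the PBL19C3A libraries were above all others, with the sid2 line next. WRKY16 and WRKY52 may share reads. For each of the 3 receptors another annotated gene lies under the window before its start; whether the genes themselves overlap was not tested.

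Over WT the PBL19C3A line was higher by 0.91 ± 0.11 for WRKY16, 0.91 ± 0.14 for WRKY19 and 0.75 ± 0.14 for WRKY52 on the log2 scale (edgeR adjusted p = 0.00105, 0.00257 and 0.00625). The eds1 line was lower than the PBL19C3A line by -0.77 ± 0.11, -0.92 ± 0.14 and -0.62 ± 0.14 (edgeR adjusted p = 0.00267, 0.00335 and 0.0169). For WRKY52 this last call was lost without PBL19C3A library 1, eds1 library 1 or eds1 library 2 (0.0908, 0.0827 and 0.0678). The sid2 line exceeded WT by 0.60 ± 0.11 for WRKY16 (edgeR adjusted p = 0.011), a call lost without sid2 library 1 (0.0655) or WT library 1 (0.0817). It exceeded WT by 0.47 ± 0.14 for WRKY19, which was called with the library number as a block (edgeR adjusted p = 0.0201) and, at 0.66, without WT library 2 (0.0403), but not in the fit of all libraries without the block (0.0563).

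Genes that work with these factors were followed in lists chosen from general knowledge of the pathway, with earlier results of these data already known. Of 12 kinases upstream of WRKY factors, 11 rose in the PBL19C3A line over WT and 0 fell, 8 fell in the eds1 line against the PBL19C3A line, and 6 rose in the sid2 line over WT (median log2 fold changes 1.13, -0.98 and 0.77). Over all genes these shares were 21.3% higher, 16.2% lower and 12.1% higher. With the library number as a block MKK4 was called in the last 2 comparisons as well (edgeR adjusted p = 0.0173 and 0.0318, against 0.061 and 0.0728 without it). MKK1, a kinase of the MPK4 branch, stood at 61.1 and 57.1 FPKM in PBL19C3A plants, 27.1 and 21.3 in sid2 plants, 14.5 and 16.4 in eds1 plants and 11.2 and 15.7 in WT. It was the 1 kinase called between the sid2 and PBL19C3A lines, lower in the sid2 line by -1.32 (edgeR adjusted p = 0.0203); the call was lost without any 1 of the 4 libraries (0.0637 to 0.124), and with the library number as a block MKK2 and MPK4 were called lower as well (0.0448 and 0.0467). MPK3, which phosphorylates WRKY33, and CPK6, a calcium-dependent kinase, rose in the PBL19C3A line over WT by 1.96 and 1.61 (edgeR adjusted p = 0.00593 and 0.0038), and MPK3 by 2.63 without WT library 2.

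VQ-motif proteins bind group I and IIc factors. Of 22 listed, 17 had values in the PBL19C3A line and 10 of these rose over WT and 0 fell, while 6 of 14 fell in the eds1 line against the PBL19C3A line (all genes: 21.3% higher and 16.2% lower). Among the 13 at 1 CPM in both WT libraries 8 rose over WT in the PBL19C3A line (all such genes: 18.7%). MKS1, a substrate of MPK4 that binds WRKY33, was also called lower in the eds1 line with the library number as a block (edgeR adjusted p = 0.0235, against 0.0651 without it). SIB1, a partner of WRKY33, stood at 81.7 and 79.7 FPKM in PBL19C3A plants, 45.7 and 32.9 in sid2 plants, 8.77 and 4.64 in eds1 plants and 1.24 and 6.64 in WT. Its log2 fold change in the PBL19C3A line over WT was 4.31 (edgeR adjusted p = 0.00296), 3.54 without WT library 1 and 5.95 without WT library 2. AT1G78410 and AT4G20000, also VQ genes, rose by 4.76 and 4.78 (edgeR adjusted p = 0.00122 and 0.00933). AT4G20000 had a level of 0 in WT library 2, and its fitted change was 3.80 without that library, while without WT library 1 the WT group is at 0 and has no fold.

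Of 10 genes known as targets of WRKY33, 8 had values and 6 rose in the PBL19C3A line over WT and 6 in the sid2 line over WT, with 0 lower in either (all genes: 21.3% and 12.1% higher). Of the 8, 3 were at 1 CPM in both WT libraries and 1 of these 3 rose in each comparison (all such genes: 18.7% and 9.72%). The other 5 therefore reached the tables through the higher levels of a line. ACS2, which makes the precursor of ethylene, stood at 8.37 and 2.93 FPKM in PBL19C3A plants, 5 and 7.91 in sid2 plants and 0 and 0.0432 in WT. CYP71A13, a camalexin enzyme whose reads may be shared with the near-identical CYP71A12, stood at 21.3 and 10.4, 45.9 and 25.4, and 0.162 and 0.325 FPKM in these genotypes. NCED5, an enzyme of abscisic acid synthesis, stood at 1.02 and 0.592, 0.598 and 0.884, and 0 and 0.0188 FPKM. In all 3 the PBL19C3A and sid2 libraries lay above WT, and none of the 3 was listed for the eds1 line. In ACS2 and NCED5 these 2 lines overlapped, and in CYP71A13 the sid2 libraries were above, by 1.18 on the log2 scale (edgeR adjusted p = 0.2). Of 4 targets with values, 2 fell in the eds1 line against the PBL19C3A line, the indole enzyme genes CYP71A12 and CYP82C2 (-4.83 and -4.01, edgeR adjusted p = 0.00021 and 0.00142), and 1 rose, NCED3 (2.32, 0.0468). Over all genes 16.2% were lower and 12% higher in that comparison. The NCED3 call was lost without either PBL19C3A library or without eds1 library 1, where the value was 1.07, with adjusted p-values of at most 0.24. These 3 genes were named after their values were seen.

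Of 6 targets of other members, 4 rose in the PBL19C3A line over WT (all genes: 21.3%), and of the 4 at 1 CPM in both WT libraries 2 rose (18.7%). PR1 and FRK1, described next, were under 1 CPM in WT and listed because a line was high. PR1, the marker of salicylic acid response, stood at 2889 and 1247 FPKM in PBL19C3A plants, 46.9 and 64.2 in sid2 plants and 1.12 and 0.651 in WT. FRK1, the receptor kinase gene activated by WRKY6, stood at 6.15 and 8.58, 2.49 and 3.21, and 0.275 and 0.194 FPKM in these genotypes. Both fell in the sid2 line against the PBL19C3A line, with log2 fold changes of -5.20 for PR1 and -1.37 for FRK1 (edgeR adjusted p = 0.00782 and 0.0471). The FRK1 call was lost without any 1 of the 4 libraries (0.124 to 0.206), and the PR1 call without either sid2 library (at most 0.0533); the PR1 value was -4.51 without PBL19C3A library 1. PBS3, which acts after ICS1 in salicylic acid synthesis, stood at 80.6 and 51.5 FPKM in PBL19C3A plants, 50.6 and 79.5 in sid2 plants, 0.448 and 0.717 in eds1 plants and 1.5 and 1.8 in WT. The phosphate exporter gene PHO1, a target of WRKY6 and WRKY42, was not called in the PBL19C3A line over WT (log2 fold change -0.67, edgeR adjusted p = 0.51; 0.0485 with the block) or in the eds1 line against the PBL19C3A line (1.15, 0.277; 0.0122 with the block).

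The members may be set beside the group III WRKY genes. In the PBL19C3A line over WT, 31 of 45 members rose, and so did 10 of 10 group III genes with values (all genes: 21.3%). At 1 CPM in both WT libraries were 34 of the 45 members and 2 of the 10 group III genes. Of these, 22 of 34 members and 2 of 2 group III genes rose (all such genes: 18.7%). The other group III genes with values reached the tables through the higher level of a line. Among WRKY genes outside group III that are not on the member list, WRKY36 and WRKY59 were in a table, and both rose in the PBL19C3A line over WT (edgeR adjusted p = 0.00671 and 0.00115), WRKY36 by 2.04 on the log2 scale and WRKY59 to 8.82 and 5.28 FPKM in PBL19C3A plants, against 0 and 0 in WT. Neither WRKY36 nor WRKY59 was at 1 CPM in both WT libraries, so both reached the tables through the higher level of a line. The difference between these sets of WRKY genes was not tested.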

How the data were processed

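Read counts per gene were deposited in 3 tables, each with the WT libraries beside 1 line, and per-gene FPKM levels come from the authors' own tables, deposited with them. Per the submitters' processing notes, reads were handled with HISAT2 2.0.4 on TAIR10; the counter and the use of strand are not given in the sources used here. Members were matched by locus identifier, and promoter and coding sequences come from RefSeq's TAIR10.1 annotation alone. Tests on counts used edgeR 4.0.16 and R 4.3.3 (quasi-likelihood test, TMM scaling, filterByExpr, Benjamini-Hochberg adjustment over all genes of a comparison, threshold 0.05). The design was 1 fit of 8 libraries. As the tables list different genes, each gene was fitted with all 8, 6 or 4 libraries that hold it, a choice made after the tables were seen. No value was imputed.

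Alternatives were DESeq2 1.42.0, RLE scaling, other filters, only the 2 groups compared, the library number as a block, and leaving out each library. Deviations from the group means correlated between same-numbered libraries in all 6 pairs of genotypes (r from 0.134 to 0.345). The labels do not say that the numbers pair the libraries. Genotype was the only term of the main tests, whose calls and adjusted p-values therefore leave out any such pairing. The block was fitted as an alternative. Where nothing says that libraries came from separate plants (the design text speaks of 1 biological replicate), p-values measure only the spread between numbered libraries, which may be technical. Counting intervals are exact and cover counting error only. Members and lists were chosen with earlier results of these data known. Members got all library values when called with a log2 fold change of at least 1 in the PBL19C3A line over WT, or in any other comparison; others with values in full were chosen after their values were seen. Of each list, up to 3 called genes with the largest change in the PBL19C3A line over WT were named, and any others after their values were seen. The test was checked on simulated counts in which all genes had the same relative spread and libraries were drawn independently. That check cannot show how the calls fare where the spread differs between genes or same-numbered libraries are linked.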

Additional observations from a re-analysis of the deposited data

How the results depend on the processing

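With 2 libraries per genotype, leaving out 1 library also makes the sample smaller. The 32 calls of members in the PBL19C3A line over WT became 22 to 25 in that case and 29 to 33 under the other settings. Calls over all genes without 1 library ranged from 3710 to 4760 in this comparison (6533 with all), from 2479 to 3749 for the eds1 line against the PBL19C3A line, from 1182 to 2066 for the sid2 line over WT, and from 23 to 61 for the sid2 line against the PBL19C3A line. In the last comparison, members called numbered 0 without any 1 library, 4 with the replicate block and 6 by DESeq2, against 2, and all genes 917 with the block and 1349 by DESeq2, against 469. For the eds1 line over WT all genes called were 88 by DESeq2 and 17 with only these groups, against 28, and 0 members throughout. The share of member promoters with a W box was 56%, or 38% for the longer forms and 24% for 2 or more cores. Single values were followed for 31 members, in the sid2 line against the PBL19C3A line and where some setting gave a call. In the eds1 line over WT only WRKY33 and WRKY40 were followed. Of these values, signs turned without 1 library in the sid2 line against the PBL19C3A line for WRKY26 (-0.10 to 0.35), WRKY31 (-0.15 to 0.60), WRKY48 (-0.02 to 0.57), WRKY75 (-0.44 to 0.45) and WRKY22 (-0.15 to 0.16). In the eds1 line over WT that of WRKY33 turned (1.61 with all libraries, -0.25 to 2.39). Signs also turned in values not followed, among them WRKY18 (-0.67 to 1.06) and WRKY60 (-0.27 to 0.76) in the eds1 line over WT. Of the 1034 values followed, 944 kept direction and call, 60 lost the call, 20 gained it and 10 turned. The cause was not tested. With the replicate block, calls of 9 members changed, as stated beside each, and no other member call did.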
